A study of Mus musculus with 12 samples.

Results

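The transcriptome of osteocytes was compared with that of mesenchymal stem cells (MSCs) when both had been treated with FG-4592. The comparison used the 6 FG-4592 libraries of the 12 in the series, 3 from osteocytes and 3 from MSCs, and took in every gene whose count exceeded 10 in 3 or more of the 12 libraries, which left 16484 of 56350 genes. Both cell states came from MPC2, a mouse mesenchymal progenitor clone made conditionally immortal, which divides at 33 °C and stops dividing and differentiates at 37 °C. "MSC" denotes MPC2 cells kept undifferentiated at 33 °C, and "osteocyte" denotes MPC2 cells differentiated for 3 weeks at 37 °C in osteogenic medium. The treated cells of both states received 50 µmol/L FG-4592 (Roxadustat) for 48 h. The other 6 libraries, osteocytes and MSCs given the DMSO vehicle for 48 h, served as the untreated form of the same comparison. Temperature, medium, time in culture and cell state cannot be told apart in this design, and the line is 1 clone. Nothing in the labels says that the replicates were separate cultures, so the p-values measure the spread between these libraries, which may be technical.

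FG-4592 inhibits the prolyl hydroxylases that mark the α subunits of hypoxia-inducible factor (HIF) for degradation, so that HIF accumulates in normal oxygen and its target genes, among them angiogenic, glycolytic and iron transport genes, are switched on. Osteocytes are the cells embedded in bone matrix. They arise from osteoblasts, which arise from mesenchymal progenitors, and they secrete FGF23, the hormone that lowers serum phosphate. The same progenitors can also give rise to adipocytes and chondrocytes. The question here was which differences between the cell states were present with both under FG-4592. HIF protein was not measured in these libraries.

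The FG-4592 libraries held between 61072804 and 68108470 counts. Mitochondrial genes took between 2.15% and 2.50% of the counts. Levels are given as CPM, the counts of a gene per 1000000 counts of the library after TMM scaling of its total, and a count of 0 allows up to 3 counts in a library, or about 0.05 CPM. Genes were called where edgeR's quasi-likelihood test gave a false discovery rate (FDR) under 0.05 and the log2 fold change passed 1 in either direction, and "higher" and "lower" refer to osteocytes relative to MSCs.

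Under FG-4592, 2080 genes (12.6% of those tested) were higher in osteocytes and 930 (5.64%) were lower. Protein-coding genes made up 1646 of the higher and 754 of the lower calls, and long non-coding RNAs 285 and 97. The larger the fitted difference, the more of the calls were higher ones: 1278 genes were higher by over 4-fold against 298 lower, 791 against 114 by over 8-fold, and 376 against 29 by over 32-fold. For genes at 0 counts in a group, such as Gja3 and Gdf5, the fitted fold exceeds the bound that the counts support, which is given below. The median log2 fold change of all genes tested was 0.03. These shares and this median are the background for every gene list below. Among the calls, 985 (32.7%) were genes that share exonic bases with another gene, and since read pairs were counted for every gene they overlapped and without strand, such genes may hold reads of their neighbour. Of the genes named below, Phospho1, Trf, Hyal1, Twist2, Fstl3, Gdf5, Rarres2 and Mb share the largest parts of their exons, and F13a1, Irf5, L1cam, Txnip, Runx2, Hif1a, Slc2a1, Rbm3, Car9, Cyp51, Scd2, Hmgcs1, Idi1, Fdps, Eln, Spp1 and Notch1 are among those that share smaller parts.

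The largest rises were in Plin1, C3, Serping1, Adipoq, Rarres2, Col2a1, F13a1 and Dcn. Plin1, which encodes the lipid droplet coat protein perilipin (chr7:79720218-79732903, mm10), stood at 0.218, 0.253 and 0.203 CPM in the 3 MSC libraries and at 330.2, 302 and 347 CPM in the 3 osteocyte libraries (log2 fold change 10.49 ± 0.16 (SE), FDR = 5.1e-17). Adipoq, which encodes the adipocyte hormone adiponectin, stood at 2.7, 3.02 and 2.84 CPM in MSCs and at 1385, 1250.4 and 1482 CPM in osteocytes (log2 fold change 8.91 ± 0.14 (SE), FDR = 9.8e-17). Every osteocyte library was far above every MSC library for both genes. In these bulk libraries fewer cells of a type and less RNA per cell cannot be told apart, here or in the results that follow. The central complement component C3 rose from 0.225 ± 0.125 CPM (mean ± SD, n = 3) to 130.0 ± 13.1 CPM (log2 fold change 9.19 ± 0.21), and Serping1, the inhibitor of the first complement component, from 0.584 ± 0.0876 to 325 ± 26.7 CPM (9.11 ± 0.15). The matrix proteoglycan decorin (Dcn) rose from 5.48 ± 0.157 to 1033 ± 14.1 CPM (7.56 ± 0.10), the cartilage collagen gene Col2a1 from 1.31 ± 0.11 to 294 ± 46.4 CPM (7.81 ± 0.18), the secreted chemoattractant Rarres2 (chemerin) from 0.467 ± 0.107 to 123 ± 13.1 CPM (8.04 ± 0.22) and the transglutaminase F13a1 from 2.18 ± 0.474 to 439.5 ± 35.7 CPM (7.66 ± 0.14). These 8 genes had the largest rises among protein-coding genes that averaged 10 or more counts in MSCs and 100 or more in osteocytes.

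The most abundant protein-coding genes of osteocytes among those with no count in any MSC library were Lum, Rbp4, Thrsp and Adig. The proteoglycan lumican (Lum, chr10:97565128-97572703) stood at 90.6, 111 and 97 CPM in osteocytes, at least 2108-fold higher than the floor of 3 counts per library. The retinol carrier Rbp4 was at least 622-fold higher, the lipogenic factor Thrsp at least 487-fold and the adipogenesis gene Adig at least 385-fold. Among all called genes that were higher, the most abundant in osteocytes were the chemokine Cxcl12 (3154 ± 40.1 CPM in MSCs and 7397 ± 203 CPM in osteocytes), the IGF-binding protein Igfbp5 (869 ± 28.1 and 5503 ± 432 CPM), the cell surface glycoprotein basigin (Bsg, 1913 ± 50.9 and 4629 ± 386 CPM) and the focal adhesion protein tensin 3 (Tns3, 656 ± 22.4 and 2318 ± 54 CPM).

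Of the genes with the largest falls, the placental prolactin family member proliferin (Prl2c2, chr13:12996125-13005383) stood at 442, 339 and 297 CPM in MSCs and at 1.09, 1.29 and 0.545 CPM in osteocytes (log2 fold change -8.52 ± 0.28 (SE), FDR = 3.5e-13). It belongs to a family of near-identical genes, so its reads are uncertain. The surface glycoprotein Cd24a stood at 24.9, 24.3 and 24.4 CPM in MSCs and at 0.123, 0.114 and 0.347 CPM in osteocytes (log2 fold change -6.97 ± 0.20 (SE), FDR = 4.7e-14). The MSC and osteocyte libraries did not overlap for either gene. The non-classical MHC gene H2-M1 (log2 fold change -5.86 ± 0.23), the neural adhesion molecule L1cam (-4.78 ± 0.41), the membrane protein gene Parm1 (-4.74 ± 0.17), the synaptic adhesion molecule Lrrc4c (-4.70 ± 0.27), the interferon regulatory factor Irf5 (-4.57 ± 0.32) and the Src family kinase Fyn (-4.54 ± 0.19) followed. Genes with no count in any osteocyte library were scarce in MSCs too: Hsd3b6 was at least 14-fold lower, Gja3 at least 10.1-fold, Prl2c1 at least 5.23-fold and Car1 at least 4.84-fold. The most abundant MSC genes that fell were the WNT antagonist Sfrp1 (1341 ± 43.2 CPM in MSCs and 621 ± 48.3 CPM in osteocytes), the water channel Aqp1 (1266 ± 49.7 and 368 ± 40.1 CPM), the pentose phosphate enzyme Pgd (1010.2 ± 62.3 and 459.9 ± 17.2 CPM) and the fatty acid desaturase Scd2 (1000.0 ± 29 and 229.7 ± 3.28 CPM).

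The osteocyte label was checked against bone and osteocyte genes. Several defining osteocyte genes were absent: Sost, which encodes the WNT inhibitor sclerostin, had no count in any of the 12 libraries, Mepe had none in the 6 FG-4592 libraries, and the early osteocyte gene Pdpn had 1 count in 1 of them. Dmp1, a matrix phosphoprotein of osteocytes, stood at 0.134, 0.417 and 0.0937 CPM in MSCs and at 2.42, 1.39 and 2.38 CPM in osteocytes (log2 fold change 3.23 ± 0.45 (SE), FDR = 1.3e-05). Phex, the endopeptidase whose loss raises FGF23, stood at 0.621, 0.209 and 0.203 CPM in MSCs and at 2.65, 3.78 and 2.06 CPM in osteocytes (log2 fold change 3.06 ± 0.30 (SE), FDR = 3e-07). Fgf23 itself stood at 0.0168, 0.0596 and 0.0781 CPM in MSCs and at 1.92, 1.29 and 1.62 CPM in osteocytes (log2 fold change 4.90 ± 0.83 (SE), FDR = 0.0001). For all 3 genes the osteocyte libraries lay above the MSC libraries, at levels of a few CPM. In vehicle-treated osteocytes Dmp1 stood at 11.2 ± 2.3 CPM and Phex at 57.6 ± 6.32 CPM, above the FG-4592-treated ones, and Fgf23 at 0.0251 ± 0.0435 CPM, below them.

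Of 20 osteocyte genes listed, 14 were tested, 5 were higher, none was lower, and the median log2 fold change was 0.44. Besides Dmp1, Phex and Fgf23, the decoy receptor Tnfrsf11b (osteoprotegerin), which blocks osteoclast formation, rose from 1.76 ± 0.363 to 39.3 ± 1.76 CPM (log2 fold change 4.48 ± 0.19 (SE), FDR = 5.7e-12), and the chemokine scavenger Ackr3 from 11.7 ± 0.49 to 33.4 ± 2.91 CPM. The osteoclast-promoting ligand Tnfsf11 (RANKL) was at 0, 0.0298 and 0 CPM in MSCs and at 0.0924, 0 and 0.132 CPM in osteocytes, which was not called (FDR = 0.072). Its ratio of 7.53 had a 95% counting interval of 1.64 to 64.8, and it was called when replicate 2 of either group was left out (log2 fold change 5.23 without the MSC library and 3.19 without the osteocyte library), as well as with no filter on low counts, by DESeq2 and by the likelihood ratio test (2.62 to 2.83), 5 of 22 alternatives in all.

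Transcription factors of the osteoblast lineage did not separate the cell states in the same way. Of 16 tested, none was higher, and Msx2 (-4.63 ± 0.79) and Twist2 (-2.02 ± 0.22), homeobox and basic helix-loop-helix factors of early mesenchyme, were lower. Runx2, the factor that commits cells to the osteoblast lineage, stood at 117, 118 and 115 CPM in MSCs and at 143, 149 and 144 CPM in osteocytes, a log2 fold change of 0.31 ± 0.04, and Sp7 (osterix), which acts after it, at 37.2, 34.1 and 37.7 and at 52.8, 56.7 and 55.8 CPM, a log2 fold change of 0.60 ± 0.05. Both had an FDR under 0.05 and no overlap between the groups, with changes below the cutoff of 1.

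Genes of mineral deposition were higher in part. Of 19 mineralization and bone matrix genes tested, 9 were higher and 1 lower, with a median log2 fold change of 1.05. The inhibitor of calcification Mgp stood at 52.6, 47.6 and 45.6 CPM in MSCs and at 1176, 997 and 1394 CPM in osteocytes (log2 fold change 4.61 ± 0.16 (SE), FDR = 5.5e-13). Enpp1, which makes the mineral inhibitor pyrophosphate, rose from 44.4 ± 4.00 to 334 ± 16.9 CPM, and Ank, which exports it from the cell, from 91.4 ± 5.6 to 189 ± 2.86 CPM, a log2 fold change of 1.05 ± 0.06 that fell short of the fold threshold, at 0.996, with scaling by library size alone. The sphingomyelinase Smpd3, needed for bone mineralization, rose by 2.49 ± 0.18 on the log2 scale, bone sialoprotein (Ibsp) by 1.82 ± 0.22, osteomodulin (Omd) by 3.51 ± 0.14, the collagen-binding integrin chain Itga11 by 2.82 ± 0.07 and osteocalcin (Bglap) by 3.43 ± 0.33, the last from 0.175 ± 0.0421 to 1.89 ± 0.363 CPM. Bglap has near-identical neighbours, so its reads are uncertain. Phospho1, the phosphatase that starts mineral formation in matrix vesicles, was the 1 member that fell, from 16 ± 1.31 to 3.52 ± 0.388 CPM (log2 fold change -2.18 ± 0.17 (SE), FDR = 2.2e-08). Alkaline phosphatase (Alpl) stood at 17.9, 19.7 and 20.2 CPM in MSCs and at 32.5, 41.5 and 29 CPM in osteocytes, a log2 fold change of 0.84 ± 0.11, under the cutoff. The abundant Spp1 (osteopontin) had a log2 fold change of 0.22 ± 0.09.

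**Figure D1:**
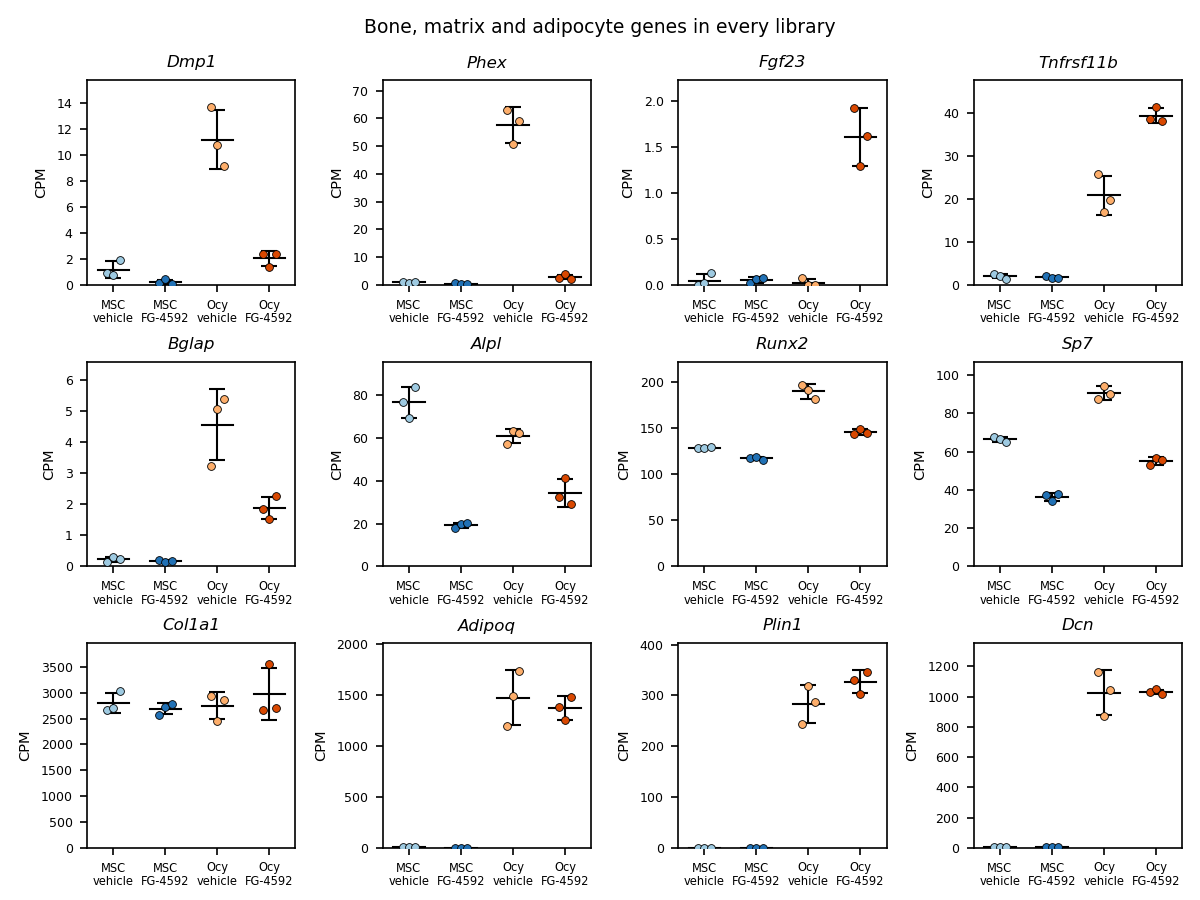
Level (CPM, linear axis from 0) of 12 bone, matrix and adipocyte genes in each of the 12 libraries, by cell state (Ocy, osteocyte) and treatment. Points are libraries, and bars are the mean and SD of 3. Under FG-4592 Adipoq, Plin1 and Dcn separated the cell states by far more than Runx2, Sp7 or Alpl did, and Col1a1 overlapped.

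Transcripts of several matrix genes changed, while those of the main bone collagen were not called. The type I collagen gene Col1a1, which encodes the main protein of bone matrix, stood at 2576, 2719 and 2784 CPM in MSCs and at 2657, 3546 and 2711 CPM in osteocytes (log2 fold change 0.14 ± 0.09, FDR = 0.21), and its partner Col1a2 had a log2 fold change of 0.07 ± 0.05 (FDR = 0.29). The sign of both rested on osteocyte replicate 2, without which they were at -0.0046 and -0.0077. Of 34 collagen genes tested, 17 were higher and 2 lower, with a median log2 fold change of 0.91, or 0.73 with genes at 0 in a group set at their bound. Beside Col2a1, the fibrillar Col11a1 rose from 2.12 ± 0.498 to 170.3 ± 23.2 CPM and Col3a1, the collagen of soft connective tissue, from 216 ± 12.4 to 1582 ± 143 CPM. Col28a1 (-1.87 ± 0.28) and Col10a1 (-1.10 ± 0.32), the latter a marker of hypertrophic cartilage, fell, and the call for Col10a1 was lost without MSC replicate 2 (-0.97).

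Small leucine-rich proteoglycans, which bind collagen fibrils and set their spacing, showed the highest median of the matrix lists: 8 of 11 tested were higher, none was lower, and the median log2 fold change was 3.79. Osteoglycin (Ogn) stood at 91, 99.1 and 107 CPM in MSCs and at 1374, 1518 and 1218 CPM in osteocytes, and asporin (Aspn) rose by 5.80 ± 0.50 on the log2 scale. Among collagen-modifying enzymes and chaperones, 4 of 16 were higher, led by the prolyl 3-hydroxylase P3h2 (2.44 ± 0.06), and the procollagen enhancer Pcolce2 was lower (-1.05 ± 0.06). Of 20 lysyl oxidase and elastic fibre genes, 5 were higher and none lower. Fibulin 5 (Fbln5), which tethers elastic fibres to cells, rose from 80.4 ± 3.49 to 980.2 ± 57.3 CPM, while elastin (Eln) stood at 0.0168, 1.24 and 0 CPM in MSCs and at 2.99, 4.38 and 2.51 CPM in osteocytes, and its log2 fold change of 2.92 ± 0.63 became 8.34 without MSC replicate 2 and was not called by DESeq2 (adjusted p = 0.095). Of 26 matrix proteases and inhibitors, 8 were higher and 1 lower, the latter a share near the 5.64% of all genes. Collagenase 3 (Mmp13) stood at 1.71, 1.43 and 1.5 CPM in MSCs and at 286, 249 and 250.3 CPM in osteocytes (log2 fold change 7.40 ± 0.14 (SE), FDR = 5.9e-16), and Adamts7 fell (-1.26 ± 0.30).

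Cartilage genes were mixed. Of 12 tested, 5 were higher, with the cartilage matrix protein Comp (4.49 ± 0.18) at the lowest FDR, and 1, the large proteoglycan versican (Vcan), was lower (-1.78 ± 0.10). The cartilage master factor Sox9 had a log2 fold change of -0.37, and aggrecan (Acan) was not tested for want of counts. The summed level of the 18 listed genes, which do not include Col2a1, was 947 to 1067 CPM in MSCs and 539 to 626 CPM in osteocytes, of which Vcan had 633 ± 55 and 184 ± 32.5 CPM. Col2a1, given above, rose in the same libraries.

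**Figure D2:**
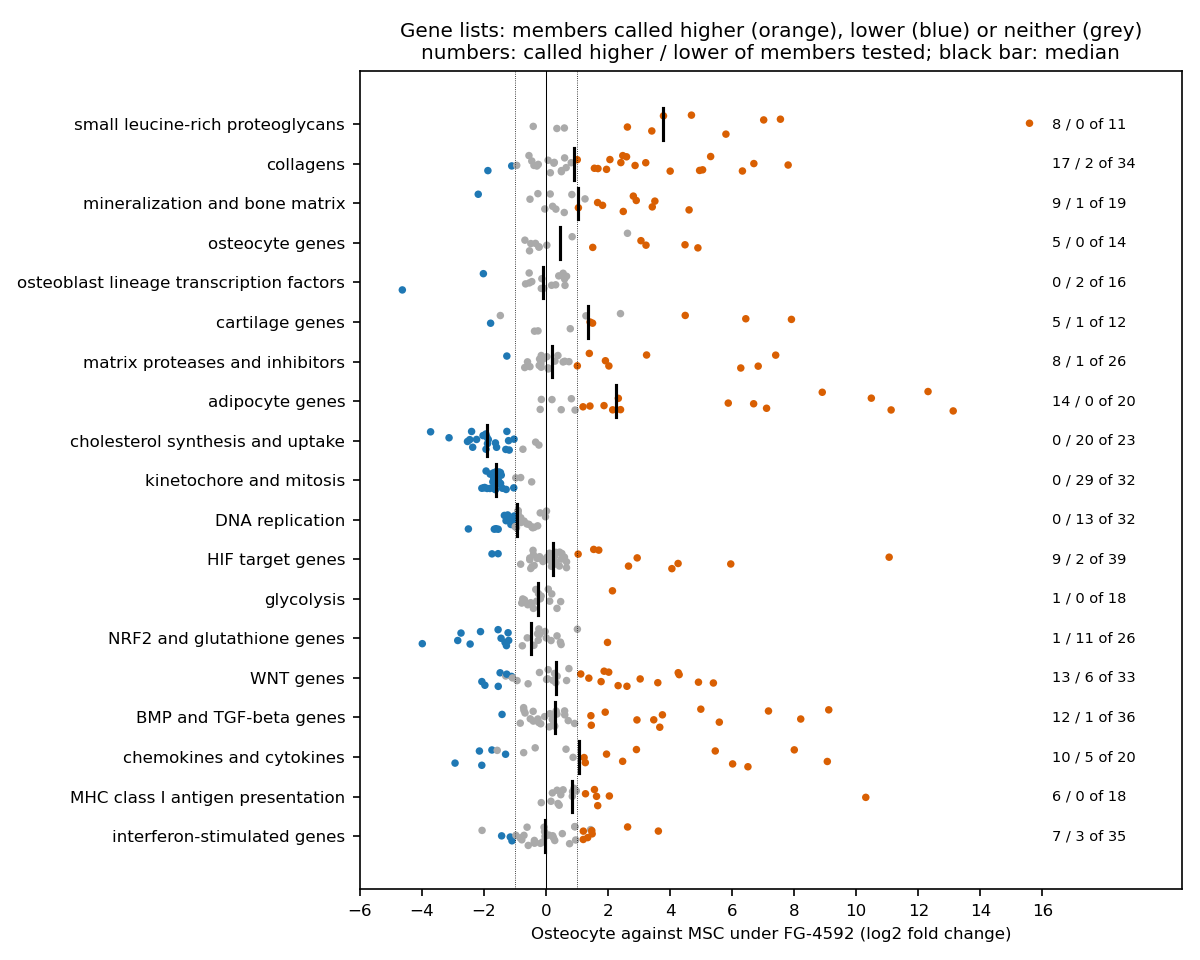
Log2 fold change, osteocyte against MSC under FG-4592, of each tested member of 19 gene lists. Points are genes, coloured by call (orange higher, blue lower, grey neither), black bars are list medians, dotted lines mark a log2 fold change of 1 either way, and the counts at the right are calls of members tested. Adipocyte and proteoglycan genes lay mostly to the right of 0, and all cholesterol synthesis and mitosis genes to the left.

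Adipocyte genes were higher in the cells labelled osteocytes. Of 20 tested, 14 were higher, none was lower, and the median log2 fold change was 2.24, beside 0.03 over all genes. The summed level of the 23 listed genes was 3082 to 3186 CPM in the MSC libraries and 9674 to 10882 CPM in the osteocyte libraries, and of the list 1 gene, the brown fat uncoupler Ucp1, had no count in osteocytes. The adipocyte-secreted protease Cfd (adipsin) stood at 0.134, 0 and 0 CPM in MSCs and at 414, 369 and 397 CPM in osteocytes. The fatty acid carrier Fabp4 stood at 4.58, 4.28 and 3.31 and at 222, 199 and 293 CPM, the lipid droplet protein Cidec at 0.0168, 0.0596 and 0 and at 66.1, 61.2 and 61.9 CPM, and the hormone resistin (Retn) at 0 in all MSC libraries and at 9.94, 9.16 and 11.9 CPM in osteocytes. The factors that drive adipogenesis were already abundant in MSCs. Pparg stood at 62.4, 65.3 and 64.5 CPM in MSCs and at 115, 111 and 114 CPM in osteocytes, a log2 fold change of 0.82 ± 0.05 that did not reach the cutoff, and Cebpa rose from 143 ± 5.69 to 381 ± 19 CPM. The desaturase Scd1 rose from 399 ± 13.9 to 2113 ± 246 CPM, whereas the fatty acid synthase Fasn had a log2 fold change of -0.18 ± 0.07. The bone and matrix genes above rose in the same libraries as the adipocyte genes, whose part in those results was not tested.

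Stromal surface markers moved in both directions. Of 14 tested, 5 were higher and 2 lower. The listed marker Thy1 had no count in MSCs under either treatment and was not tested. The adhesion molecule Vcam1 rose from 7.2 ± 0.292 to 254 ± 13.5 CPM (log2 fold change 5.14 ± 0.06 (SE), FDR = 1.5e-17), and the ectonucleotidase Nt5e (CD73) from 0.229 ± 0.0927 to 32.4 ± 0.595 CPM. Mcam and the leptin receptor Lepr rose by 6.68 ± 0.18 and 3.44 ± 0.22 on the log2 scale, and Cd34 by 1.54. The adhesion molecule Alcam fell from 99 counts in the 3 MSC libraries to 3 in the osteocyte libraries, a ratio of 31.9 with a 95% counting interval of 10.7 to 159, and the intermediate filament gene Nes fell by 1.24 on the log2 scale.

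Apart from the osteoclast list, which had the highest sum, the markers of other lineages below were scarce in both cell states. The summed level of 13 blood and immune genes was 2.17 to 3.04 CPM in MSCs and 0.985 to 1.85 CPM in osteocytes. Both globin genes were at 0 in both groups. Ptprc, the pan-leukocyte gene of the list, had no count in MSCs and 4, 9 and 2 counts in the osteocyte libraries. The macrophage receptor gene Csf1r was the called member of that list, lower in osteocytes by a log2 fold change of -1.46 ± 0.55, from 0.835 ± 0.314 to 0.303 ± 0.262 CPM, with libraries that overlapped between the groups and exonic bases shared with another gene. It was not called when MSC FG-4592 replicate 1, osteocyte FG-4592 replicate 1 or osteocyte FG-4592 replicate 3 was left out. Of 8 osteoclast genes the sum was 25.1 to 29 and 36.2 to 37.4 CPM, with Dcstamp and Calcr at 0 in both. The phosphatase Acp5, at 0, 0.0745 and 0 CPM in MSCs and at 1.96, 2.21 and 1.95 CPM in osteocytes, was the called member, and its log2 fold change of 6.18 became 9.96 without MSC replicate 2. The sums of 9 endothelial genes (1.83 to 2.48 and 3.01 to 4.37 CPM), 7 epithelial genes (0 to 0.209 and 2.39 to 3.33 CPM), 8 neural genes (3.46 to 4.13 and 4.54 to 5.39 CPM) and 10 skeletal muscle genes (0.0156 to 0.491 and 1.00 to 1.93 CPM) stayed under 6 CPM. Called members of these lists, all higher, were the endothelial receptors Flt1 and Tek, the epithelial cadherin Cdh1, the glial filament gene Gfap, and the muscle genes Mb, Chrna1 and Tnnt3, each under 3 CPM in osteocytes. Flt1 lost its call without replicate 1 of MSCs (2.46) or of osteocytes (2.30).

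Genes of cholesterol synthesis and uptake were lower almost throughout. Of 23 tested, 20 were lower, none was higher, and the median log2 fold change was -1.88. Cyp51, a demethylase of the later steps, had the lowest FDR of the list, at 167, 164 and 174 CPM in MSCs and at 33.1, 35 and 30.2 CPM in osteocytes (log2 fold change -2.36 ± 0.06 (SE), FDR = 2.7e-14). Hmgcs1, an enzyme of the first steps, stood at 354, 337 and 345 CPM in MSCs and at 90.6, 98.7 and 86.8 CPM in osteocytes. The isoprenoid enzymes Idi1 and Fdps fell by 3.12 and 3.72 on the log2 scale, the squalene epoxidase Sqle by 2.03 and Srebf2, which encodes the transcription factor that drives the pathway, by 1.29. No osteocyte library reached the lowest MSC library for any of these genes. The members not called were Pmvk, Ebp and Tm7sf2. Among RefSeq promoters (build GRCm38.p6, 250 bases before to 50 after the gene start), those of 16 of the 23 genes were found, and 1 of them, of Hmgcs1, held the sterol regulatory element spelled TCACNCCAC on either strand, as did 1.24% of all 32851 promoters.

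Cell division genes were lower as a group. Of 32 kinetochore and mitosis genes tested, 29 were lower, none was higher, and the median log2 fold change was -1.60. The kinetochore protein gene Cenpf stood at 99.4, 80.6 and 91.8 CPM in MSCs and at 28, 24.1 and 17 CPM in osteocytes (log2 fold change -1.98 ± 0.13 (SE), FDR = 1.3e-09), and the proliferation marker Mki67 at 223, 181 and 188 and at 65, 63.1 and 36.8 CPM (log2 fold change -1.84 ± 0.15 (SE), FDR = 2.8e-08). The mitotic cyclin Ccnb2, the checkpoint target Cdc20 and the kinase Plk1 fell by 2.00, 1.68 and 1.62 on the log2 scale. Of 32 DNA replication genes, 13 were lower and none was higher (median -0.92). The ribonucleotide reductase subunit Rrm2 had the lowest FDR, from 501 ± 21.9 to 88.5 ± 22.5 CPM, and the helicase subunit Mcm5 fell by 1.61 on the log2 scale. The count for DNA replication lay between 9 and 16 over the alternative settings, with several members close to the cutoff on either side of it. Mitotic transcripts were present in osteocytes too, with a summed level of 352 to 537 CPM against 1220.3 to 1405 CPM in MSCs.

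A sequence named for cell cycle genes was in most of the promoters found for the mitosis list. The cell cycle genes homology region, spelled TTTGAA and searched on both strands, was in 22 of 31 RefSeq promoters (71%) of the 27 mitosis genes found, and in 17.9% of all 32851 promoters of the same length. It was in the promoters of 19 of the 25 found genes that were lower, and of 20 of all 27 found. Its presence was not tested against the fall in osteocytes. The windows below are from members of the list. Capitals mark the motif or its reverse complement TTCAAA, and each window is written 5′ to 3′ on the strand of the gene. A match describes the letters and is not shown to be a bound site. They lie at chr4:118437346-118437371 for Cdc20 (minus strand), chr9:70421535-70421560 for Ccnb2 (minus), chr7:122159455-122159480 for Plk1 (plus), chr1:189688069-189688094 for Cenpf (minus), chr10:69352912-69352937 for Cdk1 (minus) and chr2:164769890-164769915 for Ube2c (plus).
Cdc20: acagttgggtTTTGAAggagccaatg
Ccnb2: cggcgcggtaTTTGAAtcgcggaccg
Plk1: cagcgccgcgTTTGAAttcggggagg
Cenpf: cggcgggcagTTTGAAtcgctcgtgc
Cdk1: ccgcggcgagTTTGAAactgctggca
Ube2c: agggttgcaaTTCAAAcgcgggcggc

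The cell states were grown at different temperatures, and the cold-induced gene Rbm3 was lower in osteocytes. Rbm3, an RNA-binding protein induced by mild cold, stood at 547, 555 and 523 CPM in MSCs at 33 °C and at 159, 166 and 143 CPM in osteocytes at 37 °C (log2 fold change -1.79 ± 0.06 (SE), FDR = 4.9e-13). Cirbp, the other classic cold-inducible gene, stood at 67.1, 68.1 and 51.3 and at 32.2, 36.6 and 42.9 CPM, a log2 fold change of -0.74 ± 0.14, under the cutoff. Of 16 cold- and heat-responsive genes, 4 were lower, beside 5.64% of all genes, among them the heat shock genes Hspa1a, Hspa1b and Hspb1, and 1, the chaperone Hsph1, was higher (1.35 ± 0.08), beside 12.6% of all genes. Hspa1a and Hspa1b are near-identical, so their reads are uncertain, and the calls for Hspa1a and Hspb1 were lost without 1 library, that for Hspa1a without osteocyte replicate 2 (-0.94) and that for Hspb1 without MSC replicate 2 (-0.92) or osteocyte replicate 1 (-0.90) or 3 (-0.85).

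With both states under FG-4592, oxygen-sensing genes differed between them. Of 10 genes for HIF subunits, hydroxylases and their regulators, 3 were higher and none was lower. Epas1, which encodes HIF-2α, stood at 75.3, 80.7 and 80.2 CPM in MSCs and at 815, 763 and 851 CPM in osteocytes (log2 fold change 3.36 ± 0.06 (SE), FDR = 2e-16). Hif1a, which encodes HIF-1α, stood at 220.1, 224 and 228 and at 187, 193 and 179 CPM, a log2 fold change of -0.26 ± 0.05. The hydroxylase gene Egln3 (PHD3), itself a HIF target, had 1 count in the 3 MSC libraries and stood at 14.9, 17.2 and 14.5 CPM in osteocytes, a ratio of 2985 with a 95% counting interval of 531 to 117030. The main oxygen sensor Egln1 (PHD2) stood at 488, 494 and 510.2 and at 591, 626 and 645 CPM (log2 fold change 0.32 ± 0.05), and Egln2 (PHD1) stood at 46.6, 46.8 and 44.9 and at 47.9, 46.9 and 51.7 CPM, which did not pass the test (0.08 ± 0.07, FDR = 0.36). Cited2, which competes with HIF for its coactivators, rose from 172 ± 5.12 to 382 ± 20.4 CPM.

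More HIF target genes were called higher than lower. Of 39 tested, 9 were higher and 2 lower, beside 12.6% and 5.64% of all genes, and the lower share was near that of all genes. The median log2 fold change was 0.24. The angiogenic factor Vegfa stood at 208, 204 and 207 CPM in MSCs and at 607, 584 and 608 CPM in osteocytes (log2 fold change 1.54 ± 0.06 (SE), FDR = 4.1e-12). The glycogen-targeting phosphatase subunit Ppp1r3c stood at 38.5, 39.7 and 39.8 and at 308, 279 and 319 CPM (log2 fold change 2.94 ± 0.07 (SE), FDR = 4.7e-15), the lipase inhibitor Angptl4 at 55.5, 57.3 and 60.3 and at 336, 364 and 395 CPM, and the carbonic anhydrase Car9 at 0.0503, 0.104 and 0 and at 3.68, 3.35 and 3.07 CPM. The osteocyte libraries were the higher ones for each of these. Stanniocalcin 2 (Stc2) and the vasodilator peptide gene Adm rose by 4.26 ± 0.36 and 4.06 ± 1.06 on the log2 scale, and the value for Adm, which had counts in MSC replicate 2 alone among MSCs, became 8.07 without that library. The glycolytic regulator Pfkfb3 rose by 1.70 ± 0.08 and Ankrd37 by 1.04 ± 0.12, the latter falling under the cutoff without replicate 3 of MSCs (0.995) or of osteocytes (0.97). In all, 3 of 21 alternatives ended the call for Ankrd37, a change of processing among them. The members that went the other way were Vldlr and Hmox1. The lipoprotein receptor Vldlr stood at 175, 180.3 and 192 CPM in MSCs and at 54, 58.2 and 51.6 CPM in osteocytes (log2 fold change -1.74 ± 0.07 (SE), FDR = 9.9e-12), and haem oxygenase 1 (Hmox1) at 908, 925 and 868 and at 313, 296 and 319 CPM (log2 fold change -1.54 ± 0.05 (SE), FDR = 7.5e-13).

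Glycolytic genes, another set of HIF targets, lay mostly below 0 without passing the cutoff. Of 18 tested, 12 had a negative log2 fold change and the median was -0.27. The glucose transporter Slc2a1 (GLUT1) stood at 238, 235 and 229 CPM in MSCs and at 165, 169.6 and 165 CPM in osteocytes (log2 fold change -0.49 ± 0.06 (SE), FDR = 1.6e-06). The enzymes Pgk1 (-0.75 ± 0.04), Eno1 (-0.78 ± 0.05) and Ldha (-0.46 ± 0.04) differed by similar amounts, each with no overlap between groups, whereas hexokinase 2 (Hk2) overlapped (0.08 ± 0.08, FDR = 0.46). The lactate transporter Slc16a3 was the 1 call, at under 0.3 CPM in every library, and its log2 fold change of 2.14 ± 0.88 lost its call when any 1 of 9 libraries was left out, the FG-4592 libraries of both states among them (1.97 to 2.35). It also lost it with library size alone, upper-quartile factors, filterByExpr, no filter, DESeq2 and the replicate block, which made 15 of 22 alternatives, with FDR up to 0.18 over them.

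Of 18 iron handling genes tested, 4 were higher and 2 lower, beside 12.6% and 5.64% of all genes. Transferrin (Trf), which carries iron in serum, had 1 count in the 3 MSC libraries and stood at 21.9, 17.9 and 18.9 CPM in osteocytes (a ratio of 3942 with a 95% counting interval of 671 to 147901). The iron exporter Slc40a1 (ferroportin) rose from 6.15 ± 0.366 to 18.3 ± 1.44 CPM, the haemochromatosis protein Hfe from 15 ± 0.51 to 71.2 ± 0.785 CPM, and Bmp6, the ligand that reports iron stores, from 0.591 ± 0.404 to 19 ± 2.03 CPM. The metalloreductase Steap1 and Hmox1 fell, by 1.74 and 1.54 on the log2 scale. The transferrin receptor Tfrc, which imports iron, stood at 120.4, 112 and 120.3 CPM in MSCs and at 71.9, 62.2 and 66.6 CPM in osteocytes (log2 fold change -0.81 ± 0.08 (SE), FDR = 4.2e-07), under the cutoff. Among NRF2 targets and glutathione genes, which answer oxidative stress, 11 of 26 were lower and 1 was higher. The quinone reductase Nqo1 stood at 418, 387 and 358 CPM in MSCs and at 75.7, 67.5 and 70.7 CPM in osteocytes (log2 fold change -2.44 ± 0.08 (SE), FDR = 2.9e-13), and the cystine importer Slc7a11, the glutathione synthesis subunit Gclm and the transferase Gsta3 fell by 2.74, 1.45 and 3.98 on the log2 scale. The endoplasmic reticulum peroxidase Gpx8 was the 1 that rose (1.98 ± 0.05).

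**Figure D3:**
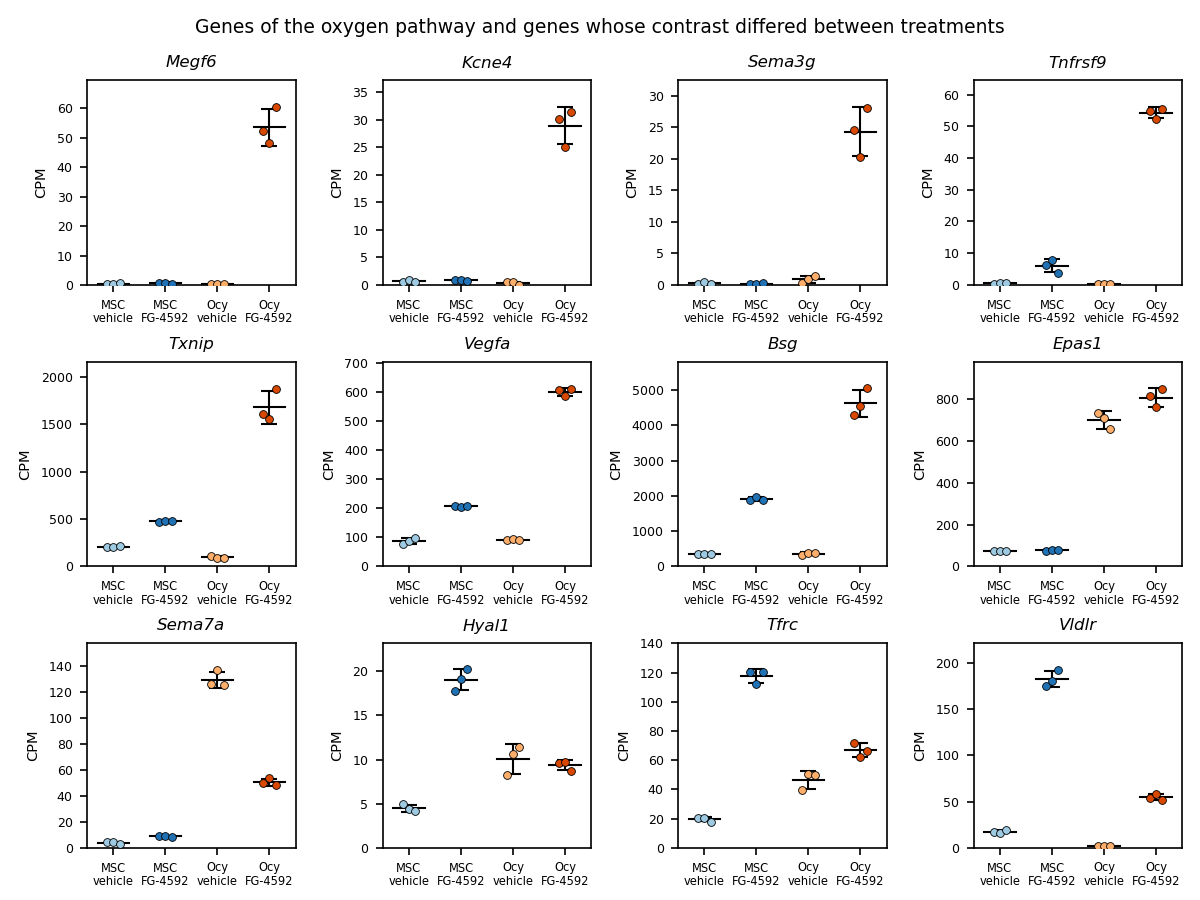
Level (CPM, linear axis from 0) of 12 oxygen pathway genes and genes whose osteocyte-MSC contrast differed between treatments, in each of the 12 libraries. Points are libraries, and bars are the mean and SD of 3. Epas1 was higher in osteocytes under either treatment, Vegfa and Bsg were higher in osteocytes under FG-4592 with contrasts near 0 under vehicle, and the contrasts for Txnip and Hyal1 changed sign between treatments.

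Genes of the WNT pathway, which drives osteoblast formation, were called in both directions. Of 33 WNT genes, 13 were higher and 6 lower, beside 12.6% and 5.64% of all genes. The co-receptor Lrp5, whose mutations change bone mass, stood at 42.3, 44.3 and 41.5 CPM in MSCs and at 354, 339 and 359 CPM in osteocytes (log2 fold change 3.04 ± 0.06 (SE), FDR = 1.1e-15). The receptor Fzd4 and the ligand Wnt7b rose by 4.29 ± 0.10 and 4.26 ± 0.77 on the log2 scale. The agonist Rspo2 stood at 556, 555 and 590.0 CPM in MSCs and at 131, 148 and 127 CPM in osteocytes (log2 fold change -2.07 ± 0.06 (SE), FDR = 5.7e-14), and the ligand Wnt5a and the antagonist Sfrp1 fell by 1.54 and 1.11 on the log2 scale. Ligands and antagonists were found among both the higher and the lower genes, whereas the called receptors, Fzd4, Fzd8, Lrp5 and Ror1, were all higher.

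Of 36 BMP and TGF-β genes, 12 were higher and 1 lower, with secreted antagonists among the higher. Follistatin (Fst), which traps activin, stood at 5.19, 4.36 and 4.95 CPM in MSCs and at 49.3, 53 and 58.8 CPM in osteocytes (log2 fold change 3.47 ± 0.08 (SE), FDR = 7e-15). The BMP antagonists noggin (Nog) and Grem1 rose by 3.67 ± 0.36 and 5.59 ± 0.61 on the log2 scale, and the ligands Bmp2 and Bmp6 by 1.45 ± 0.21 and 4.99 ± 0.29. The ligands Gdf10 and Gdf5 had no count in MSCs and were at least 23.7-fold and 6.15-fold higher. The activin-binding protein Fstl3 was lower (-1.41 ± 0.15).

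The IGF family had 7 of 17 tested genes higher and 2 lower, with a median of 0.82. Igfbp4, which restrains IGF action, stood at 7.6, 9.21 and 8.31 CPM in MSCs and at 275, 262 and 263 CPM in osteocytes (log2 fold change 4.99 ± 0.09 (SE), FDR = 1.9e-16). The growth factor Igf1 rose from 132 ± 3.00 to 307 ± 29.5 CPM, while the fetal mRNA-binding proteins Igf2bp2 and Igf2bp3 fell by 1.54 and 2.11 on the log2 scale. Of 16 Notch genes, 5 were higher, with the ligand Jag1 (1.36 ± 0.06) at the lowest FDR, the receptor Notch1 (1.58 ± 0.08) and the glycosyltransferase Mfng (no count in MSCs, at least 97.1-fold higher) among them, and the target Hey1 was lower (-2.06 ± 0.18).

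Secreted immune signals moved in both directions. Of 20 chemokines and cytokines, 10 were higher and 5 lower. Besides Cxcl12, the membrane chemokine Cx3cl1 stood at 18.5, 21.7 and 21.2 CPM in MSCs and at 81.3, 77.3 and 79.2 CPM in osteocytes (log2 fold change 1.95 ± 0.07 (SE), FDR = 9e-13). The B-cell chemokine Cxcl13 had no count in MSCs and was at least 23-fold higher. The neutrophil chemokine Cxcl1 stood at 20.1, 16.2 and 18.6 CPM in MSCs and at 5.45, 5.58 and 5.37 CPM in osteocytes (log2 fold change -1.74 ± 0.12 (SE), FDR = 2.2e-09), and the monocyte chemokines Ccl2 and Ccl7 fell by 2.14 and 2.93 on the log2 scale. Of 18 MHC class I genes, 6 were higher and none was lower, with a median of 0.85. H2-K1 rose from 618 ± 36.5 to 1965 ± 83 CPM and H2-Q4 from 90.6 ± 4.89 to 374 ± 14.6 CPM, and the light chain gene B2m had a log2 fold change of 0.48 ± 0.04. H2 genes are closely related in sequence, so reads may be misplaced among them.

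The same comparison in vehicle-treated cells shares no library with that under FG-4592. Under vehicle, 1620 genes (9.83%) were higher in osteocytes and 1003 (6.08%) were lower. Of the 1620, 1302 (80.4%) were also higher under FG-4592, which is 62.6% of the 2080. Of the 1003, 519 (51.7%) were also lower under FG-4592, which is 55.8% of the 930. Genes called in opposite directions numbered 14. Across all genes tested the log2 fold changes of both contrasts had a Pearson correlation of 0.803 and a Spearman correlation of 0.692, as a description over genes that are not independent. The difference between the contrasts was tested as an interaction, which called 649 genes positive (3.94%) and 177 negative (1.07%). Of the 765 genes called higher under FG-4592 and not called under vehicle, the interaction was called for 223, and of the 410 such lower genes for 55. For the other 542 and 355, a difference between the contrasts was not shown.

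**Figure D4:**
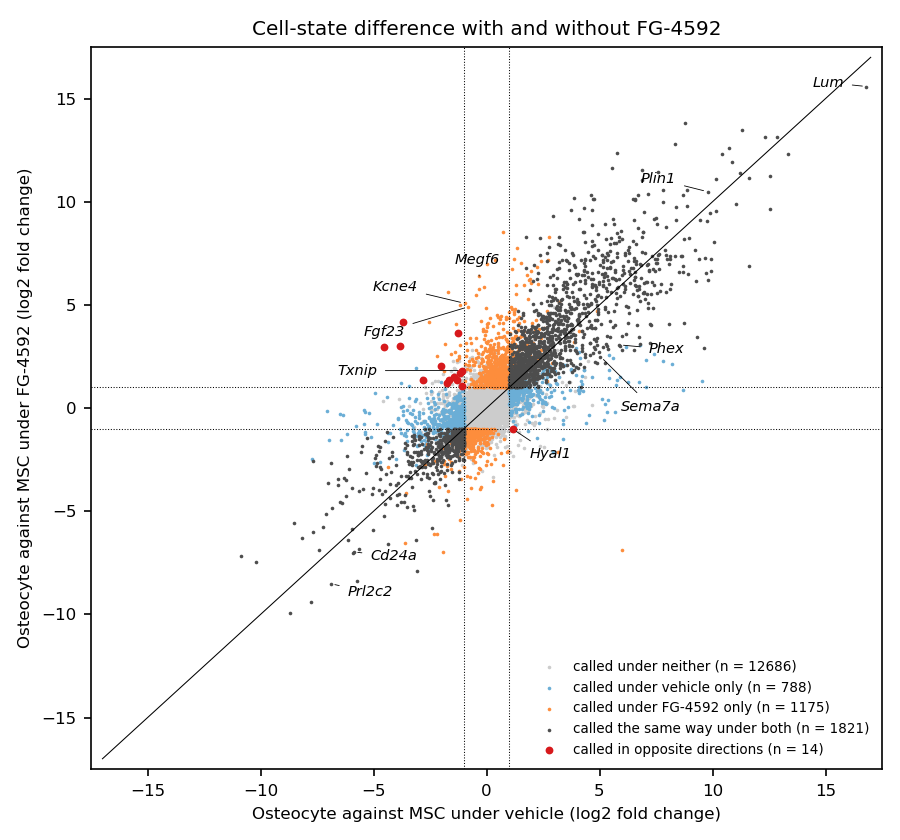
Log2 fold change, osteocyte against MSC, of each of the 16484 genes tested under vehicle (x axis) and under FG-4592 (y axis). Colours give the calls in each contrast with their numbers, dotted lines mark a log2 fold change of 1 either way, and the solid line marks equal values. The 1821 genes called the same way under both treatments lay in the upper right and the lower left, and of the 14 called in opposite directions 13 lay in the upper left and Hyal1 in the lower right. Fitted values of genes at 0 in a group, such as Lum, depend on the prior count.

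Gene lists differed in how much of the contrast was common to both treatments. Adipocyte genes had 14 members higher under vehicle and 14 under FG-4592, of which 13 were called under both. For WNT genes 17 of the 19 calls under FG-4592 were also made the same way under vehicle. Cholesterol genes had 11 members lower under vehicle, with a median of -0.82, and 20 under FG-4592, with a median of -1.88, and the interaction was negative for 10 of them, against 1.07% of all genes. Idi1, for example, had a log2 fold change of -1.24 ± 0.11 under vehicle and -3.12 ± 0.12 under FG-4592 (difference -1.88 ± 0.16, FDR = 5.9e-07). Mitosis genes had 18 members lower under vehicle and 29 under FG-4592, and DNA replication genes 1 and 13, and the interaction passed the FDR for 12 and 8 of the 32 tested in each list, with no member also past the fold cutoff. The median difference was -0.54 for mitosis genes, all of them negative, and -0.29 for DNA replication genes. For HIF targets the interaction was positive for 6 and negative for 3 of 39, beside 3.94% and 1.07% of all genes.

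**Figure D5:**
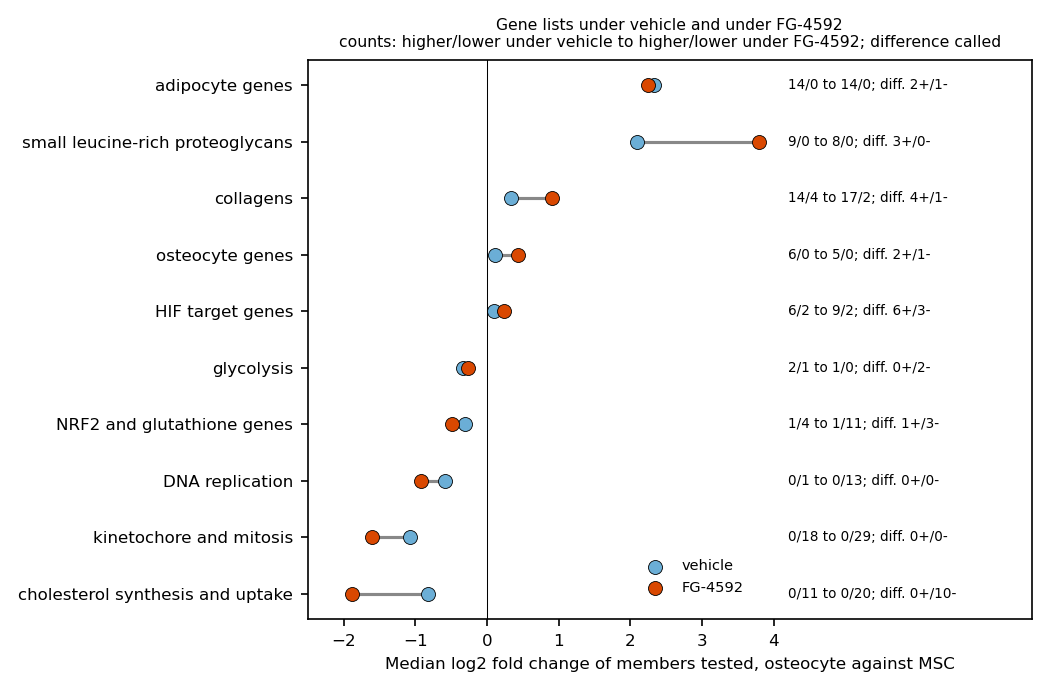
Median log2 fold change, osteocyte against MSC, of the tested members of 10 gene lists under vehicle (blue) and under FG-4592 (orange). The text at the right gives members called higher and lower under vehicle, then under FG-4592, and members for which the difference between the contrasts was called positive or negative. The median of the cholesterol list moved from -0.82 to -1.88 and that of the adipocyte list from 2.33 to 2.24.

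The largest positive differences, among genes called under FG-4592 with at least 10 counts on average in every condition, were in genes that stood higher in FG-4592-treated osteocytes than in the other 3 conditions. Megf6, an EGF-repeat gene (chr4:154170730-154275713), stood at 52.2, 48.2 and 60.3 CPM in these libraries and at 0.806, 0.745 and 0.359 CPM in FG-4592-treated MSCs, with means of 0.357 ± 0.211 CPM in vehicle-treated MSCs and 0.29 ± 0.118 CPM in vehicle-treated osteocytes (difference 6.72 ± 0.54, FDR = 2.6e-07). The potassium channel subunit Kcne4 stood at 30.2, 25.1 and 31.4 CPM in treated osteocytes and at 0.856, 0.924 and 0.781 CPM in treated MSCs (difference 6.05 ± 0.48, FDR = 2.1e-07). The semaphorin Sema3g (5.04), the costimulatory receptor Tnfrsf9 (4.09) and the sperm membrane protein Tmem95 (3.77) followed. The contrast of Bsg was 1.28 ± 0.06 under FG-4592 and 0.03 ± 0.06 under vehicle (difference 1.24 ± 0.09, FDR = 6.8e-08), and that of Vegfa was 0.07 ± 0.06 under vehicle (difference 1.47 ± 0.09, FDR = 1.1e-08).

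Within the same limits, which also ask for 100 or more counts on average in the highest condition, the largest negative differences were in genes that were higher in osteocytes by less under FG-4592 than under vehicle, or were lower under FG-4592. The semaphorin Sema7a was higher in osteocytes by 5.04 ± 0.10 under vehicle and by 2.50 ± 0.09 under FG-4592 (difference -2.54 ± 0.13, FDR = 1.1e-09). Phex was higher by 5.88 ± 0.24 and by 3.06 ± 0.30 (difference -2.81 ± 0.46, FDR = 0.0003), its osteocyte level being 57.6 ± 6.32 CPM under vehicle and 2.83 ± 0.871 CPM under FG-4592. The alarmin Il33 was higher by 3.66 and by 1.27, and the chemokine Ccl7 went from -0.33 to -2.93. The hyaluronidase Hyal1, which shares exonic bases with Naa80 and Hyal3, was higher in osteocytes under vehicle (1.17 ± 0.12) and lower under FG-4592 (-1.03 ± 0.12, difference -2.19 ± 0.17, FDR = 1.8e-07), and its call under FG-4592 was lost without replicate 3 of MSCs (-0.98) or of osteocytes (-0.98). Outside these limits, with under 10 counts on average in a condition, Eln and Slc7a11 had larger negative differences (-6.72 and -3.46), and that of Eln was -1.29 and not called without FG-4592-treated MSC replicate 2.

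Of the genes called in opposite directions, 13 were lower in osteocytes under vehicle and higher under FG-4592, and Txnip was the most abundant of them. Txnip (chr3:96557957-96561883), which restrains glucose uptake and binds thioredoxin, stood at 202, 206 and 211 CPM in MSCs and at 115, 91.8 and 84.8 CPM in osteocytes under vehicle, and at 469.8, 476 and 482 CPM in MSCs and at 1609, 1554 and 1878 CPM in osteocytes under FG-4592. The libraries of the cell states did not overlap under either treatment, and the order was reversed (difference 2.91 ± 0.13, FDR = 3.5e-10). The glutamine transporter Slc38a1 went from -1.75 ± 0.55 to 1.24 ± 0.40 and the cytochrome P450 gene Cyp3a13 from -1.09 ± 0.34 to 1.06 ± 0.28. Neither call under FG-4592 held in every setting. Without MSC replicate 3 or osteocyte replicate 2 Slc38a1 stood at 1.15 and 1.19 and no longer passed the test. In all, 3 of 22 alternatives ended the call for Slc38a1, a change of processing among them, with FDR up to 0.18. Without replicate 2 of MSCs or of osteocytes Cyp3a13 stood at 0.92 and 0.90, under the cutoff.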

How the data were processed

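RNAseq counts of 12 MPC2 libraries, 3 for each cell state and treatment in the labels, were analysed. The labels name no batch. The authors mapped paired reads to mm10 with STAR 2.7.2a and counted pairs of mapping quality 10 or more against Gencode M22 with featureCounts (Subread 1.6.2), for every gene overlapped and without strand. The authors deposited raw counts per gene and library, not normalized.

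Genes whose count exceeded 10 in 3 or more libraries were fitted across all 12 libraries by edgeR's quasi-likelihood test (version 4.0.16, R 4.3.3) after TMM scaling, with Benjamini-Hochberg adjustment over 16484 genes. Contrasts were osteocyte against MSC under FG-4592, under vehicle, and their difference. Tested on simulated data with 200 of 16033 genes changed 4-fold, the fit recovered 198 with 1 false call under FG-4592 and 193 with 6 false calls for the difference. The changed genes were drawn from those with higher counts, so recovery at low counts or of smaller changes was not tested. Counting intervals are exact, at 95%, and like the floor of 3 counts cover counting error only.

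The comparison and the 37 gene lists were chosen with earlier results of these data known. By rule, the text names, among called protein-coding genes whose groups do not overlap, the 8 largest rises and falls (averaging 10 or more counts in the lower and 100 or more in the higher group), the 4 most abundant genes called each way, also among those with 0 counts in the other group, each list's called member of lowest FDR each way and all where up to 3 were called, the 5 largest differences between contrasts each way, up to 3 genes called oppositely each way, and, whatever their values, fixed bone, oxygen and temperature genes. Other list members were named after their values were seen. Alternatives were DESeq2 1.42.0, scaling by RLE, by upper quartile or by library size alone, filterByExpr or no filter on low counts, the likelihood ratio test, a fit of the compared libraries only, a block for the replicate number, removal of genes that share exonic bases, and each library left out. Promoters came from RefSeq (GRCm38.p6). Some members of the lists are counted but not reported by name here.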

Additional observations from a re-analysis of the deposited data

Results flagged for a closer look

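For the genes below, the osteocyte-MSC contrast under FG-4592 differed from that under vehicle by the interaction test, and values are the contrast under FG-4592 less that under vehicle on the log2 scale. The difference was positive for Megf6 (6.72), Kcne4 (6.05), Fgf23 (5.74), Sema3g (5.04), Tnfrsf9 (4.09), Tmem95 (3.77), Slc38a1 (2.99), Txnip (2.91), Cyp3a13 (2.15), Vegfa (1.47), Alpl (1.16) and Tnfrsf11b (1.12). It was negative for Phex (-2.81), Ccl7 (-2.59), Sema7a (-2.54), Il33 (-2.39), Hyal1 (-2.19) and Tfrc (-2.06). Alkaline phosphatase (Alpl) had a contrast of -0.33 ± 0.10 under vehicle and 0.84 ± 0.11 under FG-4592, and its level was lower under FG-4592 in both cell states, 19.2 ± 1.23 CPM in MSCs and 34.4 ± 6.45 CPM in osteocytes, beside 76.6 ± 7.14 and 61 ± 3.24 CPM under vehicle. Tfrc was higher in osteocytes under vehicle (1.25 ± 0.09) and had a contrast of -0.81 ± 0.08 under FG-4592.

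The value for Fgf23 rested on few counts in 3 of the 4 conditions: without vehicle-treated MSC replicate 3 the difference was 3.42 and no longer passed the test (FDR = 0.4), and without vehicle-treated osteocyte replicate 1 it was 9.52. The difference for Tnfrsf11b fell under the cutoff without vehicle-treated MSC replicate 1 (0.93) or vehicle-treated osteocyte replicate 2 (0.95). Groups of 3 libraries were not screened for single outlying libraries.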

How the results depend on the processing

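Removing the 5845 genes that share exonic bases left 1377 genes higher under FG-4592 in place of 2080, 634 lower under vehicle in place of 1003, and 404 positive differences in place of 649, because fewer genes were tested. The other counts over all genes stayed within 1.5 times their main value in each of the 10 alternatives and 12 libraries left out. Counts within gene lists moved by more in some settings. Without genes that share exonic bases, 6 of 22 BMP and TGF-β genes and 2 of 9 stromal markers were higher and 13 of 15 cholesterol genes lower. Over the other settings, for example, the lower HOX genes numbered from 1 to 3, the lower collagens from 1 to 2 and the lower actin and contractile genes from 3 to 5. The higher endothelial markers numbered from 1 to 3, the lower cartilage genes from 1 to 2 and the higher NRF2 and glutathione genes from 1 to 2. With 1 library left out, the counts ranged from 1950 to 2086 higher and from 815 to 982 lower under FG-4592, from 541 to 644 positive and from 159 to 218 negative for the difference, and from 1711 to 1817 for genes called the same way under both treatments. DESeq2 called 2085 genes higher and 965 lower under FG-4592. For the named genes, 5702 values were recomputed, of which 5639 kept direction and call, 56 lost the call, 5 gained it and 2 changed sign, those of Col1a1 (-0.0046) and Col1a2 (-0.0077) without osteocyte FG-4592 replicate 2. With 1 library left out, these 2 log2 fold changes ranged from -0.0046 to 0.216 and from -0.0077 to 0.119, and neither was called in any setting. The replicate numbers did not pair the libraries: the deviations of same-numbered MSC and osteocyte libraries under FG-4592 correlated at -0.011, -0.002 and -0.053, and with the replicate block 2047 genes were higher and 910 lower under FG-4592. Differences in genes under about 0.05 CPM could not be detected at this depth.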

Other observations

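Several gene groups outside bone, lipid and oxygen biology were also measured. Of 35 interferon-stimulated genes tested under FG-4592, 7 were higher in osteocytes and 3 lower, with a median log2 fold change of -0.03, and here as for the lists that follow 12.6% of all genes were higher and 5.64% lower. Parp14 rose from 29.2 ± 1.75 to 81.4 ± 5.34 CPM, and the antiviral gene Ifit1 (-1.43 ± 0.23), the regulator Irf7 (-1.15 ± 0.11) and the deconjugase Usp18 (-1.09 ± 0.37) fell, the last losing its call without osteocyte replicate 2 or 3 (-1.08 and -1.04). Of 28 actin cytoskeleton and contractile genes, 7 were higher and 3 lower, and without genes that share exonic bases 3 and 3 of 18. Smooth muscle actin (Acta2) stood at 576, 606 and 586 CPM in MSCs and at 129.9, 176 and 109.8 CPM in osteocytes (log2 fold change -2.09 ± 0.12 (SE), FDR = 4.2e-10), and Tpm2 (-1.23 ± 0.07) and Cnn2 (-1.10 ± 0.07) also fell, while the myosin light chain kinase Mylk rose (2.72 ± 0.06).

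Of 39 HOX genes, which record position along the body axis, 19 were tested, none was higher, and Hoxc13 (-1.25 ± 0.08) and Hoxc11 (-1.02 ± 0.08) were lower. All 19 belonged to the HOXA and HOXC clusters, and no HOXB or HOXD gene passed the filter on counts. Hoxc11 fell under the cutoff without replicate 2 of MSCs or of osteocytes (-0.99 in each). Among G1 cyclins, E2F factors and CDK inhibitors, 4 of 19 were lower and none was higher, led by E2f7 (-2.28 ± 0.13), and the CDK inhibitor Cdkn1a had a log2 fold change of -0.39 ± 0.05. Of 18 p53 targets, 4 were higher and none was lower, with the death receptor Fas (1.84 ± 0.11) at the lowest FDR.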
